A study of Mus musculus with 6 samples.

Results

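The members were the replication-dependent histone genes on an Illumina MouseWG-6 v2.0 BeadChip: every probe whose target name begins with Hist1h, Hist2h, Hist3h or Hist4h, whatever the case of the letters. This name rule used no measured value and gave 59 of the 30774 gene names in the table, read by 89 of its 45281 probes. By histone class the probes divided into 7 probes for linker histone H1, 24 for H2a, 20 for H2b, 18 for H3 and 20 for H4. RNA came from sorted DN3 thymocytes, the immature T cells of the thymus that rearrange the T cell receptor beta chain and go on to divide if that rearrangement works. One group was wild-type C57BL/6 mice (WT, 3 samples) and the other was miR-185 Tg mice of the same strain, which carry a transgene for the microRNA miR-185 (Tg, 3 samples), with 1 array for each sample. Both groups were sorted with the same gate, CD44- and CD25+ and negative for CD4, CD8, B220, NK1.1, the gamma-delta receptor, CD11b and CD11c. The labels give no promoter for the transgene, no age or sex, and no statement on pooling or on separate mice, so the p-values reflect how far these samples spread, and that spread may be technical. The study looked for the molecular targets of miR-185 in these cells.

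Replication-dependent histones are made in S phase, when newly copied DNA has to be packed. H2A, H2B, H3 and H4 form the core of the nucleosome and H1 binds the DNA between cores. Most of their genes lie in clusters, have no introns, and give mRNAs that end in a stem-loop bound by SLBP instead of a poly(A) tail. NPAT, switched on by cyclin E and CDK2, drives their transcription. Kits of the MessageAmp type start the labelling of RNA with oligo(dT), so histone mRNA without a tail is outside what such labelling is designed for, and the labels do not say which histone transcripts were labelled.

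All 59 names matched a RefSeq gene: 69 probes belonged to genes on chromosome 13 (the Hist1 cluster), 15 to chromosome 3 (Hist2), 3 to chromosome 11 (Hist3) and 2 to chromosome 6 (Hist4h4). RefSeq start sites (GRCm38.p6) gave 54 upstream windows of 250 bases for 53 of the 59 names. Below are upstream bases of 5 genes to which the results return, read 5′ to 3′ on the gene's strand up to the base before its start. They were chosen as a member of an H2a and H2b pair with back-to-back starts (Hist1h2bk), an H3 and an H4 gene whose Tg arrays lay below the WT arrays (Hist1h3e, Hist1h4i), a bright H2a gene (Hist2h2ac) and the gene with the most positive values (Hist2h2aa1). Capitals mark the CCAAT box (CCAAT, or ATTGG on the other strand), the octamer (ATTTGCAT or ATGCAAAT), the TATA box (TATAAA or TTTATA) and the GGTCC element of H4 promoters (or GGACC). The windows of Hist1h2bk and Hist2h2ac stop at the edge of the neighbouring gene.
Hist1h2bk (chr13:22035644-22035820, strand +): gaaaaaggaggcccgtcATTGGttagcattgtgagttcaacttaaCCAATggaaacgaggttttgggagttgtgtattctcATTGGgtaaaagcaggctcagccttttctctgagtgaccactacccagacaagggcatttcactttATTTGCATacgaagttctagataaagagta
Hist1h3e (chr13:23562386-23562635, strand -): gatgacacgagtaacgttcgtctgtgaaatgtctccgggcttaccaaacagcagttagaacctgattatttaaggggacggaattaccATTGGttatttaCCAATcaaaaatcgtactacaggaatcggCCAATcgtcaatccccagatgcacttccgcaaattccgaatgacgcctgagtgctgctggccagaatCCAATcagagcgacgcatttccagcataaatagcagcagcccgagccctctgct
Hist1h4i (chr13:22041363-22041612, strand -): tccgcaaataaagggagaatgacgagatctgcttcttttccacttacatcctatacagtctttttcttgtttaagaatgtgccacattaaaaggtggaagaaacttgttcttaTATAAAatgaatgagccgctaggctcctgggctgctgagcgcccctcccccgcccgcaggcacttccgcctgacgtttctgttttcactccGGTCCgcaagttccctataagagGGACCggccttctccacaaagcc
Hist2h2ac (chr3:96220881-96221071, strand -): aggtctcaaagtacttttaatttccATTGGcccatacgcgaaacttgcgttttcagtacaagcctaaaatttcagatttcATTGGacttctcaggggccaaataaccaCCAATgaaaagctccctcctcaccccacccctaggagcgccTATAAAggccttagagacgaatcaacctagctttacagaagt
Hist2h2aa1 (chr3:96245247-96245496, strand +): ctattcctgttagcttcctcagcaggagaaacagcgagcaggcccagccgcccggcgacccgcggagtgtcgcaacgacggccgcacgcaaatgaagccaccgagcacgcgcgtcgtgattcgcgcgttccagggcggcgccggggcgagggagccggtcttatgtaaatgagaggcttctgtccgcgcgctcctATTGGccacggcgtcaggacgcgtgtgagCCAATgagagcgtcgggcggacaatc

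The CCAAT box was present in 83.3% of the 54 histone windows and in 33.8% of all 32851 windows of the same length. It was present in all 17 H2a and all 13 H2b windows but in 3 of 11 H4 windows. The octamer, which the factor Oct-1 binds in H2B promoters, was found in 7 of 13 H2b and 7 of 17 H2a windows and in 1.6% of all windows, and in no H1, H3 or H4 window. Windows of back-to-back H2a and H2b genes overlap, so some of these matches are the same bases counted for both genes. GGTCC was present in 10 of 11 H4 windows, against 39.8% of all windows. A match is a description of letters and not a measured site.

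After background correction and quantile normalization, a probe was kept where its detection p was under 0.05 on at least 3 of the 6 arrays, and 75 of the 89 histone probes (53 genes) were kept, among 18597 kept probes in all. None of the 75 passed an adjusted p of 0.05 in limma (Benjamini-Hochberg over all 18597), where 3.30% of all kept probes did, 1.38% lower and 1.93% higher in Tg. At an unadjusted p under 0.05, 20 histone probes were lower and 4 higher in Tg, 24 in all, against 9.38% lower and 9.48% higher over all kept probes. The count of 0 changed with single arrays and with the weighting of arrays. Without Tg 2 it was 14 (11 lower and 3 higher, with 11.5% of all kept probes called), without Tg 3 it was 1, without a trend in the variance 1, and with array weights 39 (34 lower and 5 higher, with 42.6% of all kept probes called). Of the 75 log2 fold changes (Tg over WT), 60 were negative, where 51.8% were negative over all kept probes. Their median was -0.36, beside -0.02 for all kept probes. The 3 Tg arrays all lay below the 3 WT arrays for 23 histone probes, or 30.7%, against 13.7% of all kept probes, and all above for 4, or 5.33%, against 13.4%. Of each of these counts, 1 probe was detected in the higher group alone and kept only through it. In bulk RNA, fewer dividing cells and less histone mRNA in each cell cannot be told apart. A p that misses the threshold does not show that a probe was equal in both groups.

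**Figure D1:**
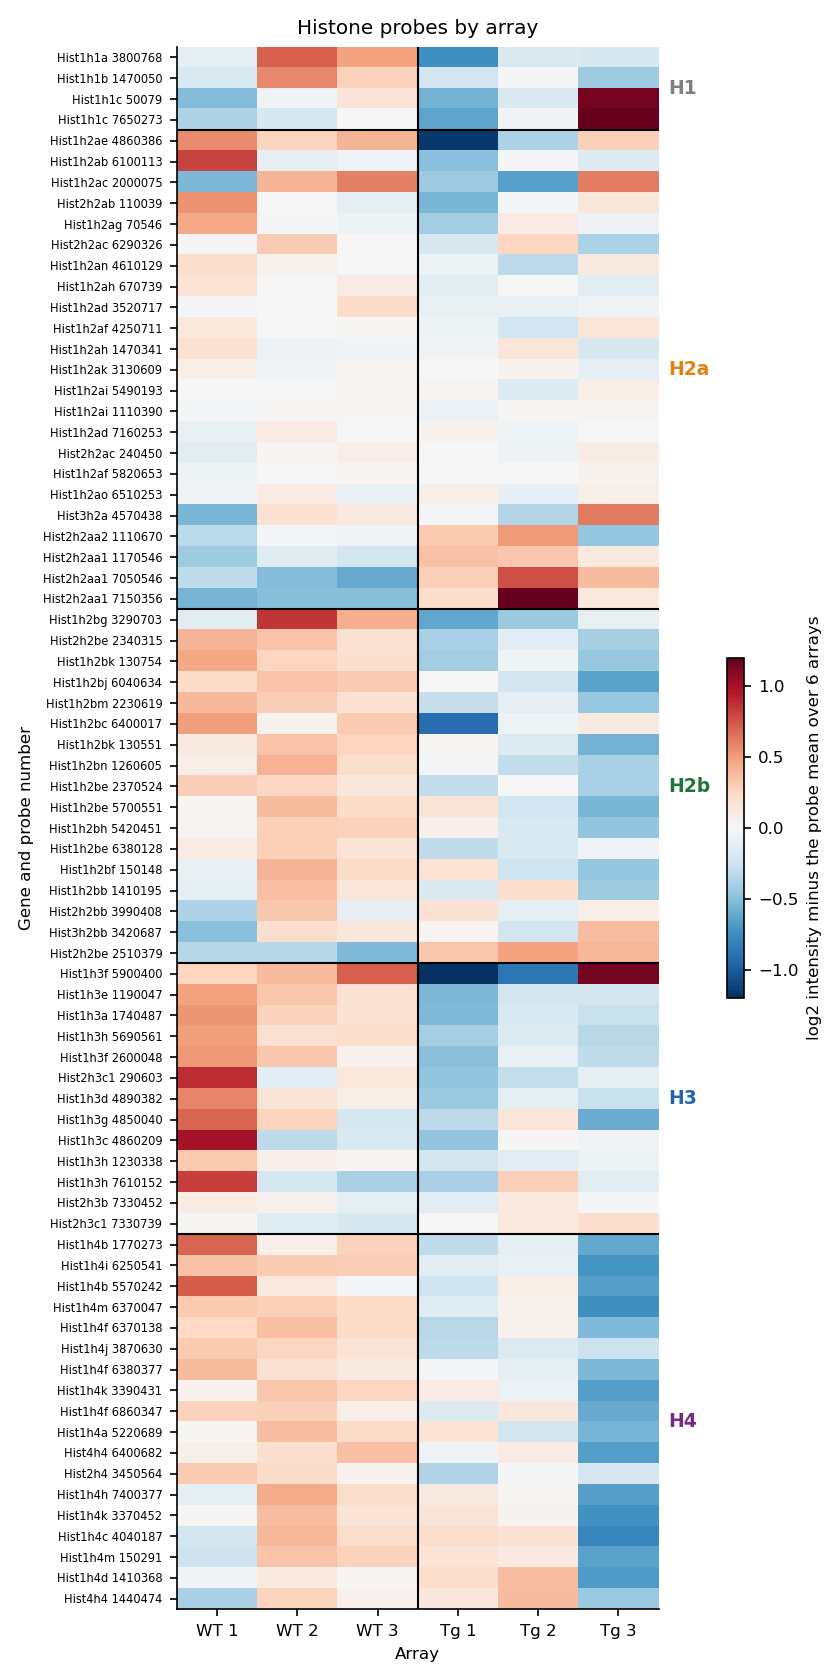
Normalised log2 intensity of each of the 75 kept histone probes (rows, sorted by fold change within a class) on each of the 6 arrays (columns), with the mean of the probe over the 6 arrays taken away. Red is above and blue below that mean, and most H2b, H3 and H4 rows are red in WT and blue in Tg, with Tg 3 bluest in H4 and Tg 1 in H3.

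The median was read for each class. H2b had a median log2 fold change of -0.46 (17 probes, 14 negative), H3 of -0.54 (13 probes, 12 negative) and H4 of -0.41 (18 probes, 17 negative). H2a had a median of -0.04 (23 probes, 15 negative) and H1 of -0.09 (4 probes, 2 negative). Over all kept probes 51.8% were negative. Within H2a, the 12 probes with a mean log2 intensity over 14 had a median of -0.04 and the 11 others of -0.20. The H1 value counts Hist1h1c by both its probes: with 1 value for each of the 3 H1 genes the median was -0.45, close to those of H2b and H4, and with array weights it was -0.54. The differences between classes were not tested. The H3 median was -0.23 in the authors' series values and -0.30 without the filter on dim probes, and the H4 median was -0.27 with array weights. The H2a median was -0.09 without normalization between arrays and -0.08 with the probes of a gene averaged. The Tg arrays lay wholly below the WT arrays for 8 of 17 H2b, 6 of 13 H3, 7 of 18 H4, 1 of 23 H2a and 1 of 4 H1 probes. Over all kept probes this held for 13.7%. Of the 8 H2b probes, 1 was kept only through WT and had to differ. The 38 kept H2b, H3 and H4 probes of the Hist1 cluster were all negative, from -0.90 to -0.06, with a median of -0.47. They include the H2b probe kept only through WT, which adds no support. All 38 were also negative under each other scaling, and 35 to 38 were with any 1 array left out. With array weights 37 of 38 were negative, without the filter on dim probes 41 of 46, and in the authors' series values 29 of 31. The 14 kept probes of the Hist2 cluster were mixed, with 8 positive and a median of 0.06, and 1 of the 8 was kept only through Tg. These are counts over probes that share arrays and, for near-identical genes, may share transcripts, so they carry no test.

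**Figure D2:**
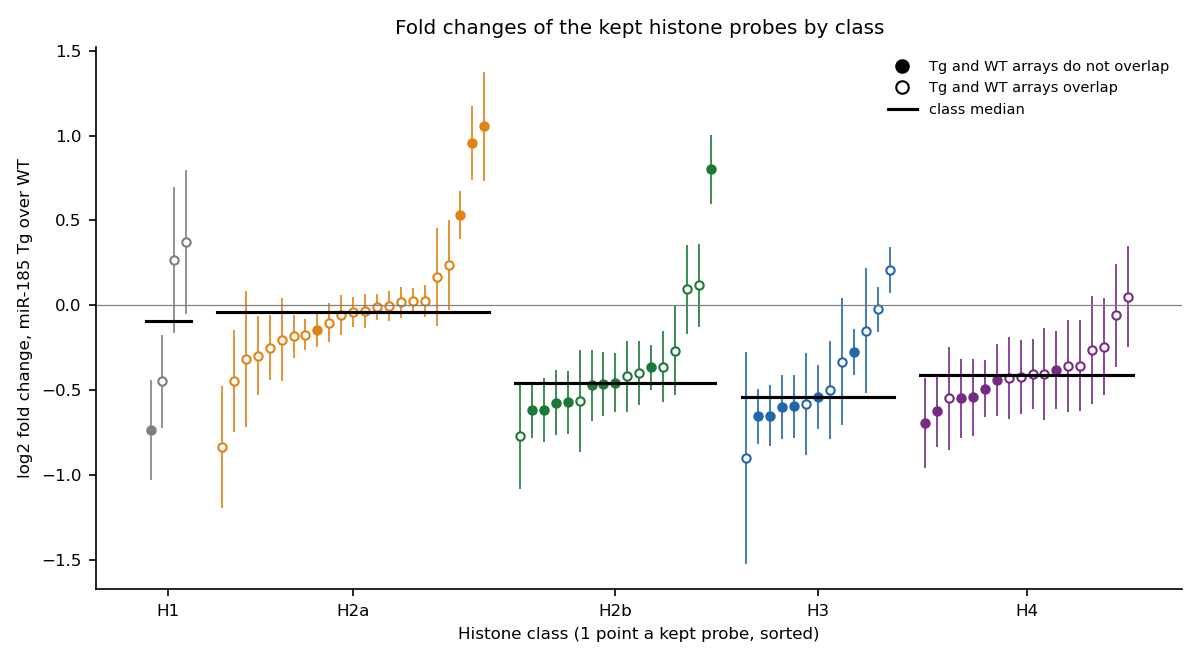
Log2 fold change of Tg over WT for the 75 kept histone probes by class, 1 point a probe with its standard error (3 arrays against 3), filled where the Tg and WT arrays do not overlap, and the class median as a black bar. The medians of H2b, H3 and H4 lie between -0.54 and -0.41, and those of H1 and H2a at -0.09 and -0.04.

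Among the linker histones, Hist1h1a had log2 intensities of 6.19, 7.01 and 6.78 in WT 1 to 3 and 5.56, 6.12 and 6.10 in Tg 1 to 3. All Tg arrays lay below all WT arrays, and the log2 fold change (Tg over WT, ± its standard error) was -0.73 ± 0.29 (SE, adjusted p = 0.229). For Hist1h1b, another replication-dependent H1, the log2 fold change was -0.45 ± 0.27 (SE, adjusted p = 0.433), and its groups overlapped. The 2 probes of Hist1h1c, an H1 gene whose human counterpart also gives polyadenylated mRNA, did not follow the other 2 probes of the class. Probe 7650273 read 9.29, 9.47 and 9.65 in WT 1 to 3 and 9.03, 9.63 and 10.88 in Tg 1 to 3. Probe 50079 read 8.69, 9.17 and 9.37 in WT and 8.64, 9.04 and 10.36 in Tg. On both probes Tg 3 was the highest array and Tg 1 the lowest, so the groups overlapped. Their log2 fold changes were 0.37 ± 0.42 (SE, adjusted p = 0.695) and 0.27 ± 0.43 (SE, adjusted p = 0.795), and without Tg 3 they turned to -0.14 and -0.24. The median of the 4 H1 probes turned to 0.02 without WT 2, to 0.09 without Tg 1, to 0.03 without the filter and to 0.01 with WT 2 and WT 3 averaged.

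The H2a probes divided into bright and dim sets. A probe's signal also depends on its own sequence, so the order of probes by signal is not an order of mRNA amount. Of the 23 kept, 12 had a mean normalised log2 intensity over 14, and their deposited intensities of 15468.9 to 38760 reached into the range of the array maxima, which were 37823 to 43374.1. The table carries no saturation mark. These 12 probes, for 8 genes, had log2 fold changes from -0.18 to 0.03 with a median of -0.04. The 11 dimmer H2a probes, for 9 genes, ran from -0.84 to 1.05, with 6 negative and a median of -0.20. The median size of the log2 fold change of the 12 bright probes, without sign, was 0.04. It was 0.08 for the 125 other probes over 14 and 0.29 for 6584 other probes with a mean between 8 and 13. The part of this signal range in the small H2a differences was not tested.

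**Figure D3:**
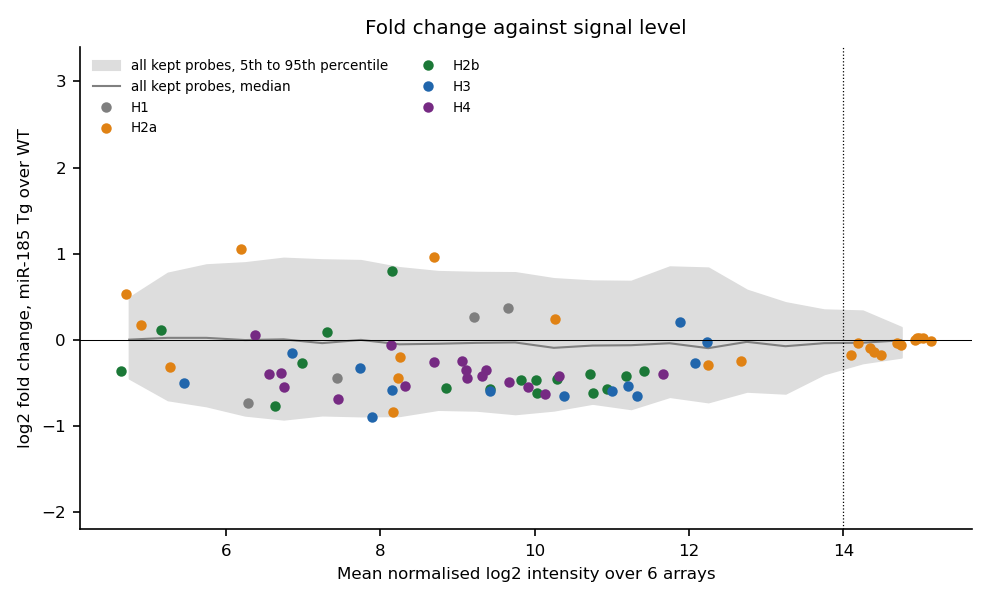
Log2 fold change of Tg over WT against the mean normalised log2 intensity for the 75 kept histone probes (points, by class). The grey band holds the 5th to 95th percentile of all kept probes in bins of intensity with at least 20 probes, the dotted line marks a mean of 14, and the band narrows to the right of it, where the 12 bright H2a probes lie.

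Hist1h2ai had the brightest histone probe, 1110390, with 15.13, 15.16 and 15.16 in WT 1 to 3 and 15.07, 15.16 and 15.18 in Tg 1 to 3. Its log2 fold change was -0.01 ± 0.08 (SE, adjusted p = 0.963), with a 95% interval from -0.19 to 0.17. Its other probe, 5490193, read 14.20, 14.20 and 14.22 in WT and 14.22, 14.04 and 14.27 in Tg and gave -0.03 ± 0.10 (SE, adjusted p = 0.894). The groups overlapped on both. Hist1h2ad read 14.84, 15.03 and 14.93 in WT 1 to 3 and 14.97, 14.88 and 14.93 in Tg 1 to 3 on probe 7160253, at -0.00 ± 0.09 (SE, adjusted p = 0.985). Its probe 3520717 read 14.38, 14.40 and 14.62 in WT and 14.31, 14.32 and 14.34 in Tg, and this was the only H2a probe with every Tg array below every WT array, at -0.15 ± 0.10 (SE, adjusted p = 0.484). Hist1h2af gave 0.02 ± 0.08 (SE, adjusted p = 0.909) on probe 5820653, from 14.89, 14.95 and 14.97 in WT and 14.95, 14.95 and 14.99 in Tg. On its probe 4250711 the values were 14.47, 14.35 and 14.36 in WT and 14.28, 14.11 and 14.49 in Tg, at -0.10 ± 0.12 (SE, adjusted p = 0.695). For Hist1h2af the groups overlapped on both probes. Hist1h2ah read 14.93, 14.68 and 14.72 in WT 1 to 3 and 14.71, 14.89 and 14.56 in Tg 1 to 3 on probe 1470341, at -0.06 ± 0.12 (SE, adjusted p = 0.842). Its probe 670739 read 14.66, 14.49 and 14.59 in WT and 14.36, 14.49 and 14.36 in Tg, for -0.17 ± 0.09 (SE, adjusted p = 0.363), also with overlap. These H2a genes encode near-identical proteins, and the signal of 1 probe may come from several copies.

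Hist2h2ac, an H2a gene of the Hist2 cluster whose upstream bases are shown above, had a bright and a dim probe. The bright probe 240450 read 14.86, 15.01 and 15.06 in WT 1 to 3 and 14.99, 14.92 and 15.07 in Tg 1 to 3, at 0.02 ± 0.09 (SE, adjusted p = 0.946). The dim probe 6290326 read 8.27, 8.56 and 8.25 in WT and 8.07, 8.52 and 7.88 in Tg, for -0.20 ± 0.24 (SE, adjusted p = 0.717). The groups overlapped on both, and the difference between the probes was not tested. Hist1h2ae had the most negative H2a value, -0.84 ± 0.36 (SE, adjusted p = 0.259). It read 8.74, 8.44 and 8.58 in WT 1 to 3 and 7.01, 7.79 and 8.45 in Tg 1 to 3, with Tg 1 and Tg 2 lowest and Tg 3 within the WT range.

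Hist2h2aa1 had the most positive values of all histone genes. On 2 of its 3 kept probes, each detected on all 6 arrays, every Tg array lay above every WT array. Probe 7050546 read 8.39, 8.18 and 8.09 in WT 1 to 3 and 8.98, 9.47 and 9.08 in Tg 1 to 3. Its log2 fold change was 0.96 ± 0.22 (SE, adjusted p = 0.0600), the smallest adjusted p among the histone probes. Probe 7150356 read 5.64, 5.68 and 5.68 in WT and 6.40, 7.44 and 6.32 in Tg, highest in Tg 2, for 1.05 ± 0.32 (SE, adjusted p = 0.126). Probe 1170546 read 4.28, 4.56 and 4.49 in WT 1 to 3 and 5.06, 5.03 and 4.83 in Tg 1 to 3 and was detected on no WT array and on all 3 Tg arrays. It passed the filter only through Tg, so it had to differ and adds no support, and its difference is a bound of at least 1.23-fold higher in Tg. Hist2h2aa2, its near-identical neighbour, read 9.94, 10.25 and 10.23 in WT and 10.57, 10.77 and 9.80 in Tg on its 1 probe, where the groups overlapped, for 0.24 ± 0.27 (SE, adjusted p = 0.691). The signal of this pair of copies cannot be assigned to 1 of them with certainty.

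Among the H2b genes, all 13 kept probes of the Hist1 cluster were negative, from -0.77 to -0.27. Of them 7 had every Tg array below every WT array, against 13.7% of all kept probes. Both counts include 1 probe of Hist1h2be kept only through WT, which adds no support. Hist1h2bk, from the back-to-back pair shown above, read 10.50, 10.29 and 10.24 in WT 1 to 3 and 9.62, 9.98 and 9.58 in Tg 1 to 3 on probe 130754. On this probe Tg 2 was the Tg array nearest to WT, and the log2 fold change was -0.62 ± 0.19 (SE, adjusted p = 0.124). Its probe 130551 read 9.93, 10.16 and 10.08 in WT and 9.85, 9.66 and 9.25 in Tg, lowest in Tg 3, for -0.47 ± 0.21 (SE, adjusted p = 0.272). Both probes had separate groups. Hist1h2bf had the brightest H2b probe, with 11.33, 11.82 and 11.64 in WT 1 to 3 and 11.58, 11.18 and 10.95 in Tg 1 to 3, where WT 1 lay among the Tg arrays. Its log2 fold change was -0.36 ± 0.21 (SE, adjusted p = 0.405). Hist1h2bg had the most negative H2b value, -0.77 ± 0.31 (SE, adjusted p = 0.228), from 6.51, 7.49 and 7.07 in WT and 6.01, 6.19 and 6.55 in Tg, and Tg 3 overlapped WT 1.

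Hist1h2be was measured by 3 kept probes, all negative. Probe 5700551 read 11.21, 11.57 and 11.41 in WT 1 to 3 and 11.34, 10.96 and 10.64 in Tg 1 to 3, with Tg 1 inside the WT range, for -0.42 ± 0.21 (SE, adjusted p = 0.331). Probe 2370524 read 10.59, 10.54 and 10.43 in WT and 10.00, 10.29 and 9.90 in Tg, with separate groups, for -0.46 ± 0.17 (SE, adjusted p = 0.203). Probe 6380128 was detected on all 3 WT arrays and on no Tg array, with 4.74, 4.93 and 4.81 in WT and 4.34, 4.46 and 4.59 in Tg. It passed the filter only through WT, so it had to differ and adds no support, and its difference is a bound of at least 1.13-fold lower in Tg. The remaining separate H2b probes of the cluster were Hist1h2bj (-0.57 ± 0.19 (SE, adjusted p = 0.151)), Hist1h2bm (-0.57 ± 0.19 (SE, adjusted p = 0.145)) and Hist1h2bn (-0.47 ± 0.19 (SE, adjusted p = 0.232)).

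The 2 probes of Hist2h2be, an H2b gene whose human counterpart also gives polyadenylated mRNA, pointed in opposite directions. Probe 2340315 read 11.17, 11.10 and 10.94 in WT 1 to 3 and 10.37, 10.63 and 10.36 in Tg 1 to 3, all Tg arrays below all WT arrays, at -0.62 ± 0.16 (SE, adjusted p = 0.0820). Probe 2510379 read 7.81, 7.81 and 7.62 in WT and 8.47, 8.63 and 8.55 in Tg, all Tg arrays above all WT arrays, for 0.80 ± 0.20 (SE, adjusted p = 0.0764). The spread within a group was at most 0.15 (SD) on either probe. Probe sequences and positions were not used here, so which transcript each probe reads is not known, and the difference between the probes was not tested.

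**Figure D4:**
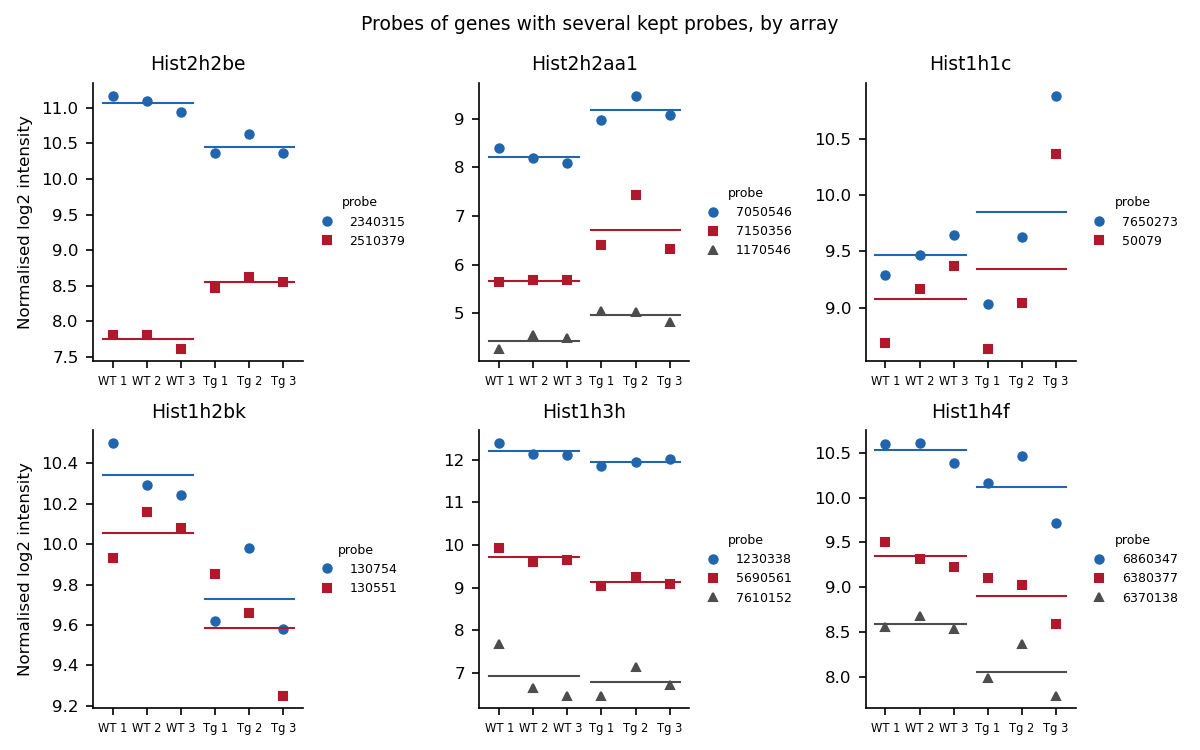
Normalised log2 intensity on each array for 6 histone genes with several kept probes, 1 symbol a probe and a line at each group mean (n = 3 arrays). The probes of Hist2h2be separate the groups in opposite directions, those of Hist2h2aa1 have higher Tg means, both probes of Hist1h1c peak in Tg 3, and those of Hist1h2bk, Hist1h3h and Hist1h4f have lower Tg means.

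Among the H3 genes, all 10 kept Hist1 probes were negative. Of them 6 had every Tg array below every WT array, against 13.7% of all kept probes. Hist1h3e, whose upstream bases hold 4 CCAAT boxes, read 11.81, 11.66 and 11.50 in WT 1 to 3 and 10.79, 11.11 and 11.11 in Tg 1 to 3. The Tg arrays were close to each other, with Tg 1 lowest, and the log2 fold change was -0.65 ± 0.16 (SE, adjusted p = 0.0722), or 1.57-fold lower. Hist1h3a read 10.91, 10.66 and 10.56 in WT and 9.85, 10.20 and 10.12 in Tg, separate and again lowest in Tg 1, for -0.65 ± 0.18 (SE, adjusted p = 0.0987). Hist1h3d gave -0.54 ± 0.19 (SE, adjusted p = 0.165), also with separate groups. Hist1h3h was read by 3 kept probes. The brightest, 1230338, read 12.39, 12.13 and 12.11 in WT 1 to 3 and 11.85, 11.95 and 12.01 in Tg 1 to 3, separate, for -0.27 ± 0.14 (SE, adjusted p = 0.332). Probe 5690561 read 9.93, 9.61 and 9.64 in WT and 9.03, 9.26 and 9.09 in Tg, separate, for -0.60 ± 0.19 (SE, adjusted p = 0.132). Probe 7610152 read 7.69, 6.65 and 6.47 in WT and 6.47, 7.15 and 6.73 in Tg, where WT 1 stood high and the groups overlapped, for -0.15 ± 0.37 (SE, adjusted p = 0.872).

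Hist1h3f was read by 2 kept probes. Probe 2600048 read 11.52, 11.32 and 11.05 in WT 1 to 3 and 10.50, 10.91 and 10.70 in Tg 1 to 3, with separate groups, for -0.59 ± 0.19 (SE, adjusted p = 0.131). Probe 5900400 read 8.16, 8.28 and 8.62 in WT and 6.27, 7.03 and 9.05 in Tg, with Tg 3 above every WT array and Tg 1 and Tg 2 below them. Its log2 fold change was -0.90 ± 0.62 (SE, adjusted p = 0.496), the most negative of all histone probes and the one with the largest error. Without Tg 3 it was -1.70, with an adjusted p of 0.0297.

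The Hist2 cluster gave 3 kept H3 probes. Hist2h3c1 read 11.90, 11.74 and 11.69 in WT 1 to 3 and 11.88, 12 and 12.08 in Tg 1 to 3 on probe 7330739, for the most positive H3 value, 0.21 ± 0.13 (SE, adjusted p = 0.465). Its probe 290603 read 9.04, 8.02 and 8.28 in WT and 7.68, 7.87 and 8.04 in Tg, with WT 1 high, for -0.58 ± 0.30 (SE, adjusted p = 0.345). Hist2h3b read 12.33, 12.29 and 12.13 in WT and 12.10, 12.36 and 12.22 in Tg and gave -0.02 ± 0.13 (SE, adjusted p = 0.947), with a 95% interval from -0.33 to 0.28. All of these overlapped. Over the 13 H3 probes, 10 were lowest on Tg 1, the array that was lowest for 15.7% of all kept probes, and WT 1 was the highest array in the class median. Without WT 1 the H3 median moved from -0.54 to -0.29, beside the other settings given above.

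Among the H4 genes, all 15 kept Hist1 probes were negative. Of them 6 had every Tg array below every WT array, against 13.7% of all kept probes. Hist1h4i, whose upstream bases hold the GGTCC element on each strand, read 10.49, 10.44 and 10.43 in WT 1 to 3 and 10.00, 10.05 and 9.42 in Tg 1 to 3. Its WT arrays lay within an SD of 0.03, Tg 3 was the lowest array, and the log2 fold change was -0.63 ± 0.21 (SE, adjusted p = 0.153). Hist1h4j gave -0.49 ± 0.17 (SE, adjusted p = 0.161) with separate groups. Hist1h4b had the most negative H4 value, -0.69 ± 0.27 (SE, adjusted p = 0.207), on probe 1770273, from 8.16, 7.52 and 7.74 in WT 1 to 3 and 7.16, 7.34 and 6.85 in Tg 1 to 3, with separate groups. Its probe 5570242 read 7.48, 6.87 and 6.73 in WT and 6.51, 6.83 and 6.09 in Tg, overlapping, for -0.55 ± 0.30 (SE, adjusted p = 0.386).

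Hist1h4f was read by 3 kept probes. Probe 6860347 read 10.60, 10.61 and 10.39 in WT 1 to 3 and 10.16, 10.46 and 9.72 in Tg 1 to 3, with Tg 2 inside the WT range, for -0.42 ± 0.22 (SE, adjusted p = 0.349). Probe 6380377 read 9.50, 9.31 and 9.23 in WT and 9.10, 9.02 and 8.59 in Tg and probe 6370138 read 8.56, 8.68 and 8.54 in WT and 7.99, 8.37 and 7.79 in Tg. Both of these had separate groups, at -0.44 ± 0.21 (SE, adjusted p = 0.316) and -0.54 ± 0.23 (SE, adjusted p = 0.249). Hist1h4m had separate groups on probe 6370047, with 10.23, 10.20 and 10.14 in WT 1 to 3 and 9.77, 9.97 and 9.18 in Tg 1 to 3, for -0.55 ± 0.23 (SE, adjusted p = 0.251). Its probe 150291 read 8.81, 9.40 and 9.34 in WT and 9.23, 9.17 and 8.42 in Tg, overlapping, for -0.24 ± 0.29 (SE, adjusted p = 0.707). Both Hist1h4k probes overlapped, and both were lowest in Tg 3. Probe 3390431 read 9.37, 9.66 and 9.58 in WT 1 to 3 and 9.42, 9.25 and 8.66 in Tg 1 to 3, for -0.43 ± 0.24 (SE, adjusted p = 0.397). Probe 3370452 read 9.38, 9.74 and 9.53 in WT and 9.52, 9.41 and 8.64 in Tg, for -0.36 ± 0.27 (SE, adjusted p = 0.534).

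Hist1h4a had the brightest H4 probe, with 11.68, 12.04 and 11.90 in WT 1 to 3 and 11.83, 11.45 and 11.11 in Tg 1 to 3 and a difference of -0.40 ± 0.21 (SE, adjusted p = 0.341), and its groups overlapped. Hist4h4, the single gene of its cluster, read 6.62, 6.75 and 6.92 in WT 1 to 3 and 6.52, 6.66 and 5.90 in Tg 1 to 3 on probe 6400682, for -0.40 ± 0.27 (SE, adjusted p = 0.483). Its probe 1440474 read 5.99, 6.65 and 6.43 in WT and 6.52, 6.76 and 5.94 in Tg, for 0.05 ± 0.30 (SE, adjusted p = 0.952), the only H4 value above 0. Hist2h4, the remaining separate H4 probe, gave -0.38 ± 0.23 (SE, adjusted p = 0.423). Over the class, 16 of 18 H4 probes were lowest on Tg 3, the array that was lowest for 23.1% of all kept probes. Without Tg 3 the H4 median moved from -0.41 to -0.23.

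The kept probes not described above overlapped between groups and had adjusted p-values of 0.302 to 0.943. They were Hist1h2ab (-0.45), Hist1h2ac (-0.31), Hist1h2ag (-0.25), Hist1h2ak (-0.04), Hist1h2an (-0.18), Hist1h2ao (0.03), Hist2h2ab (-0.30), Hist3h2a (0.17), Hist1h2bb (-0.27), Hist1h2bc (-0.56), Hist1h2bh (-0.40), Hist2h2bb (0.09), Hist3h2bb (0.12), Hist1h3c (-0.33), Hist1h3g (-0.50), Hist1h4c (-0.26), Hist1h4d (-0.06) and Hist1h4h (-0.36), with the log2 fold change in parentheses. The 14 probes that were not kept were those of Hist1h1d, Hist1h1e, Hist1h1t (the testis H1), Hist1h2aa, Hist1h2ba and Hist3h2ba, 1 further probe each of Hist1h2bc, Hist1h3d, Hist1h3g, Hist2h3c1, Hist1h4b and Hist1h4h, and 2 of Hist1h3f. Of these, 11 were detected on no array, and the other 3 on 1 or 2 arrays.

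The class medians were read on each array. After each probe was centred on its mean over the 6 arrays, the H2b median was 0.08, 0.33 and 0.20 in WT 1 to 3 and -0.01, -0.17 and -0.40 in Tg 1 to 3. The H3 median was 0.52, 0.16 and 0.05 in WT and -0.45, -0.10 and -0.13 in Tg. The H4 median was 0.15, 0.28 and 0.21 in WT and -0.03, 0.05 and -0.65 in Tg. Each of these classes was higher on every WT array than on any Tg array, but H3 was lowest on Tg 1 while H2b and H4 were lowest on Tg 3. The H2a median stayed between -0.03 and 0.07 on all arrays. The H1 median ran from -0.60 on Tg 1 to 0.47 on Tg 3.

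**Figure D5:**
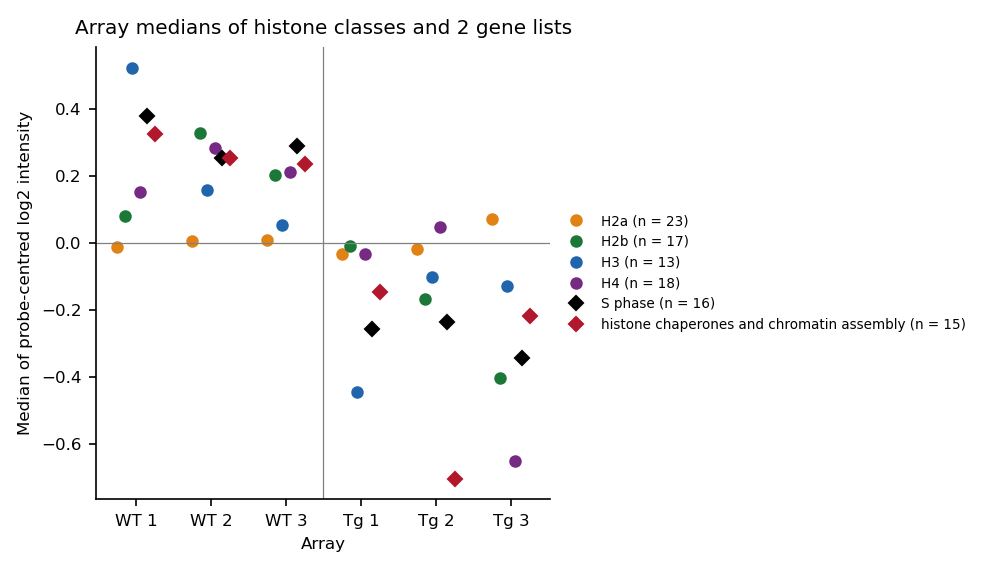
Median over probes of the log2 intensity, centred on the mean of each probe over the 6 arrays, for 4 histone classes (circles) and for the lists of S phase genes and histone chaperones (diamonds), by array. H2b, H3 and H4 are higher on each WT array than on any Tg array, H3 is lowest on Tg 1 and H4 on Tg 3.

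In 8 pairs of neighbouring H2a and H2b genes both had kept probes, so the mean log2 fold changes of the 2 genes, H2a first, can be set side by side. In 5 of them the RefSeq windows show back-to-back starts. For Hist1h2ah and Hist1h2bk, with 177 bases between their starts, the means were -0.12 and -0.54. For Hist1h2ak and Hist1h2bn (163 bases) they were -0.04 and -0.47, and for Hist1h2ag and Hist1h2bj (248 bases) -0.25 and -0.57. These H2b genes had the more negative mean, as did Hist1h2bf in its pair with Hist1h2ad (173 bases), with -0.08 and -0.36. For Hist1h2ae and Hist1h2bg (179 bases) the means were -0.84 and -0.77. In the other 3 pairs the H2b gene has no window and its strand was not read, and the distance is from the H2a start to its nearest end. For Hist2h2ac and Hist2h2be (191 bases) the means were -0.09 and 0.09, the latter over the opposed probes described above. For Hist1h2ac and Hist1h2bc (239 bases) they were -0.31 and -0.56, and for Hist3h2a and Hist3h2bb (172 bases) 0.17 and 0.12. The H2b gene had the lower mean in 6 of the 8 pairs, including Hist3h2a and Hist3h2bb, where both means were positive. In the pairs of Hist1h2ah, Hist1h2ak and Hist1h2ad, the H2a gene was read only by the bright H2a probes described above. Those probes had small log2 fold changes, and the part of their signal range in these pairs was not tested. The differences within pairs were not tested.

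Other genes of histone supply and of S phase were read from lists made with earlier results of these data known, each gene by its brightest kept probe. Of 58 genes kept, 6 passed the adjusted p in the same limma fit, all lower in Tg, or 10.3%, where 1.37% of all 13083 kept genes were called lower and 2.17% higher. None of the 58 was called higher. Among chaperones and assembly factors 3 of 15 fell. Nap1l1, a chaperone of H2A and H2B, fell from 11.99, 11.93 and 12.04 in WT 1 to 3 to 11.13, 10.57 and 11.00 in Tg 1 to 3, or 2.12-fold (adjusted p = 0.0242). Nasp, which holds a reserve of H3 and H4, fell from 10.97, 10.64 and 10.69 to 9.72, 9.52 and 9.98, or 2.04-fold (adjusted p = 0.0331). Set, another chaperone of core histones, fell from 10.00, 9.90 and 9.87 to 8.87, 8.69 and 9.11, or 2.05-fold (adjusted p = 0.0323). All 15 log2 fold changes of this list were negative, with a median of -0.58, where 50.2% were negative over all kept genes.

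In the S phase list 3 of 16 genes fell, and all 16 log2 fold changes were negative, with a median of -0.60. Mcm5, a subunit of the replicative helicase, fell from 12.97, 12.82 and 12.79 to 11.68, 11.59 and 11.71, or 2.30-fold (adjusted p = 0.00811). Tk1, thymidine kinase, fell 2.54-fold (adjusted p = 0.0394) and Cdc6, which loads the helicase, 1.87-fold (adjusted p = 0.0491). The groups were separate on each of these 6 genes, which were chosen by their adjusted p, so this adds no support. The count of 6 changed with single arrays, as did the share of all kept probes called. The count was 0 without WT 1, WT 2, WT 3 or Tg 1, where 0.0484%, 0.0645%, 0.0161% and 0.0645% of all kept probes were called. It was 14 without Tg 2 (11.5% of all kept probes) and 5 without Tg 3 (4.42%).

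No gene passed in the other lists. In the transcription list the 3 genes with the smallest unadjusted p had log2 fold changes of -0.94 ± 0.42 for Ccne2, a cyclin E, -0.50 ± 0.24 for Zfp143 and -0.48 ± 0.31 for Ccne1 (SE, adjusted p from 0.281 to 0.468), and all 6 kept genes were negative. Of the 16 names listed for mRNA end processing and decay, 12 were on the array, and Slbp was not among the 11 genes kept. In this list 7 of 11 were negative with a median of -0.15. Its 3 genes with the smallest unadjusted p were Cpsf2, a cleavage complex subunit, at -0.93 ± 0.31 (adjusted p = 0.150), Ncbp2, a cap-binding subunit, at -0.61 ± 0.21 (adjusted p = 0.156) and Lsm10, of the U7 particle, at 0.44 ± 0.22 (adjusted p = 0.331).

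The mRNAs of most replication-independent variants carry a poly(A) tail and are made outside S phase too. The list of these variants had a median log2 fold change of -0.00, with 5 of 10 negative. H1f0, the linker histone of resting and differentiated cells, read 6.78, 6.69 and 6.46 in WT 1 to 3 and 8.06, 8.19 and 7.40 in Tg 1 to 3. The groups were separate, and the log2 fold change was 1.24 ± 0.28 (SE, adjusted p = 0.0574), which missed the threshold. Cenpa, the centromeric H3, gave -0.41 ± 0.13 (adjusted p = 0.133) and H1fx -0.77 ± 0.37 (adjusted p = 0.317).

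The 6 arrays were alike in depth, with a median of 41 to 42 beads a probe, at least 19 beads on every histone probe, and 39.5% to 41.8% of probes detected. WT 2 and WT 3 correlated more closely (r = 0.996 across kept probes) than any other pair (0.925 to 0.987), and Tg 2 with Tg 3 least. All 11 DN3 marker genes were detected on every array, and their summed log2 level was 15.73 to 15.90 in WT and 16.22 to 16.34 in Tg. That sum mostly follows the brightest of them. Their log2 fold changes were of both signs, but those that passed the threshold in the same limma fit were all higher in Tg. These were 2.55 (adjusted p = 0.0194), 1.55 (adjusted p = 0.0194) and 0.72 (adjusted p = 0.0293). The negative ones, -0.64 (adjusted p = 0.409), -0.26 (adjusted p = 0.648) and -0.13 (adjusted p = 0.795), did not pass. The macrophage and dendritic cell list, with 4 of 6 genes detected on some array, was 8.84 to 9.81 in WT and 10.84 to 10.92 in Tg, and its markers Itgam and Itgax were detected on no array. Of its genes, Lyz rose in Tg by a log2 fold change of 1.59 (adjusted p = 0.0295 in the same limma fit). The sum of this list mostly follows Lyz, its brightest gene. Lyz2 (1.45, adjusted p = 0.133) and Csf1r (-0.05, adjusted p = 0.880) missed the threshold. Cd74 was detected on the 3 Tg arrays alone. It passed the filter only through Tg, so it had to differ and adds no support. The red blood cell list, with 3 of 6 genes detected, ran from 8.91 in WT 1 to 13.89 in WT 3 and from 10.05 to 11.09 in Tg, with Slc4a1 detected on no array. All 5 neutrophil genes were detected on some array but 0 of them on all 6. Their list was at 7.02, 7.16 and 8.71 in WT 1 to 3, highest on WT 3, and at 6.56 to 6.61 in Tg. The list for CD4 or CD8 positive thymocytes was 10.07 to 11.21 in WT and 9.56 to 10.59 in Tg, with Cd8a detected on no array, and the B cell list 8.86 to 9.38 and 8.73 to 9.11. The gamma-delta T cell list was 12.60 to 13.18 in WT and 13.31 to 13.65 in Tg, a sum that mostly follows its brightest gene. Its 3 genes did not move together. Their log2 fold changes were 0.55 for the brightest (adjusted p = 0.147 in the same limma fit), 1.79 (adjusted p = 0.00853) and -1.31 (adjusted p = 0.113). No natural killer cell gene was detected. The part of other cell types in the histone values was not tested.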

How the data were processed

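RNA of 6 sorted DN3 thymocyte samples, 3 WT and 3 miR-185 Tg by the sample titles, was hybridised to 6 arrays of 1 chip. Per the file headers, the authors exported the probe table unnormalized from GenomeStudio 1.9.0. It holds bead intensities and a detection score, a deposited fraction read here as 1 minus the detection p. The headers do not state whether a background was subtracted. The authors' series values are log2 of a deposited table of 1 intensity a gene (largest difference 6.29e-07), with column medians of 6.65 to 6.78, so unnormalized.

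Intensities were corrected with nec (normexp on detection p, offset 16), quantile normalized and taken to log2 in limma 3.58.1 (R 4.3.3). Probes with detection p under 0.05 on at least 3 of 6 arrays were fitted with lmFit and eBayes with a trend, without a block, and adjusted by Benjamini-Hochberg over all 18597. Where no array of a group detected a probe, its bound sets the bright group's mean against the lowest detected signal. The number of arrays limits the precision. Deviations from group means of same-numbered arrays correlated at -0.25, 0.15 and -0.26, and those of unlike numbers at -0.32 to 0.37. With 3 arrays in each group these values can neither show nor exclude pairs. The titles state no pairing, so numbers were not treated as pairs.

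Members and gene lists were chosen with earlier results of these data known. Values on every array are given for the brightest, most positive and most negative kept probe of each class and for all probes of genes with several. In the gene lists, called genes and the 3 with the smallest p were named. Hist1h3a, Hist1h3e, Hist1h4i and Hist2h2aa2 were added on every array after their values were seen. Names and promoters came from RefSeq (GRCm38.p6), and probe sequences were not used. One marker gene is not reported here by name. Alternatives were other background corrections, scalings, filters, variance models and thresholds, weighted arrays, the replicate block, 1 array removed at a time, gene-level values and the authors' series values.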

Additional observations from a re-analysis of the deposited data

How the results depend on the processing

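The numbers in the titles were not shown to pair the samples, and with them as a replicate block 0 histone probes and 2 of the histone supply and S phase genes were called, with 284 of all probes in place of 614. Histone probes called numbered 0 as reported, 1 without a trend, 39 with array weights, 6 at an adjusted p under 0.1, 24 at an unadjusted p under 0.05, and 0 to 14 with 1 array left out. Array weights favoured Tg 1 (4.39) and WT 3 (4.99) over Tg 2 (0.12) and Tg 3 (0.28), and the cause of the higher count was not tested. The median over histone probes, -0.36 as reported, was -0.29 with an offset of 50, -0.26 without background correction, -0.26 without the filter, -0.28 with array weights, -0.22 in the authors' series values and -0.41 to -0.25 with 1 array left out. Genes of histone supply and S phase called, 6 as reported, numbered 2 with median scaling, 1 without normalization between arrays, 3 without the filter, 31 with array weights, 0 with WT 2 and WT 3 averaged, 3 in the authors' series values and 0 to 14 with 1 array left out. Of all kept probes, 0.0161% to 11.5% were called with 1 array left out and 0.0161% with WT 2 and WT 3 averaged.

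Of the values of single probes under alternatives, 1368 kept their sign and side of the threshold, 55 kept their sign and passed it, and 49 changed sign, none of them past the threshold (values beside the gene and probe number). With array weights these were Hist1h1c probe 50079 (-0.51), Hist1h1c probe 7650273 (-0.42), Hist1h2ad probe 7160253 (0.013), Hist1h2af probe 5820653 (-0.011), Hist1h2ai probe 5490193 (0.0080), Hist2h2ac probe 240450 (-0.037), Hist3h2a probe 4570438 (-0.077), Hist3h2bb probe 3420687 (-0.048) and Hist1h4d probe 1410368 (0.13). With median scaling they were Hist1h2ad probe 7160253 (0.0023) and Hist2h3b probe 7330452 (0.067). With cyclic loess they were Hist1h2ad probe 7160253 (0.044), Hist1h2ai probe 1110390 (0.042), Hist1h2ai probe 5490193 (0.014) and Hist2h3b probe 7330452 (0.079). Without normalization between arrays they were Hist1h2af probe 5820653 (-0.017), Hist2h2ac probe 240450 (-0.0015) and Hist2h3b probe 7330452 (0.036). With WT 2 and WT 3 averaged there was Hist1h2ad probe 7160253 (0.019). With 1 array left out, the log2 fold change ran from -0.24 to 0.62 for Hist1h1c probe 50079, -0.14 to 0.78 for Hist1h1c probe 7650273, -0.052 to 0.045 for Hist1h2ad probe 7160253, -0.14 to 0.023 for Hist1h2ah probe 1470341, -0.033 to 0.022 for Hist1h2ai probe 1110390, -0.080 to 0.037 for Hist1h2ai probe 5490193, -0.073 to 0.0043 for Hist1h2ak probe 3130609, -0.015 to 0.083 for Hist1h2ao probe 6510253, -0.58 to 0.083 for Hist1h3c probe 4860209 and -0.38 to 0.23 for Hist1h3h probe 7610152. It ran from -0.44 to 0.060 for Hist1h4c probe 4040187, -0.26 to 0.26 for Hist1h4d probe 1410368, -0.43 to 0.018 for Hist1h4m probe 150291, -0.040 to 0.058 for Hist2h2ac probe 240450, -0.069 to 0.28 for Hist2h2bb probe 3990408, -0.092 to 0.039 for Hist2h3b probe 7330452, -0.10 to 0.38 for Hist3h2a probe 4570438, -0.11 to 0.26 for Hist3h2bb probe 3420687 and -0.13 to 0.28 for Hist4h4 probe 1440474. The cause of these changes was not tested, and fewer arrays were fitted where 1 was left out. Depth limits the dim probes, near 4.62 to 4.70, the lowest detected log2 signals, and the bright H2a probes lie near the top of the range.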
